A study of Rattus norvegicus with 6 samples.

Results

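The genes described here are the contactins Cntn1 to Cntn6 and the contactin-associated proteins Cntnap1, Cntnap2 and Cntnap4, 9 symbols chosen by name among 32883 features. Counts were analysed for 8 of them, and Cntnap2 is not analysed here. The genes were measured by single-nucleus RNA-seq in the nucleus accumbens shell, which belongs to the ventral striatum and is tied to reward and motivation. The tissue came from 24 adult Long-Evans rats of 90 to 100 days, weaned on postnatal day 22 and then pair housed, and the labels name no treatment, transgene or mutant allele in either sex. Each of the 6 libraries (3 male, 3 female) was made from tissue of 4 animals of 1 sex pooled before nuclei were released, so replicates are pools and p-values of sex measure the spread between pools. The study compared males with females, and the nuclei were also compared between classes set by marker genes.

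Contactins are cell adhesion molecules of the immunoglobulin superfamily that are held in the membrane by a lipid anchor and bind other adhesion molecules, receptor phosphatases and proteins of the extracellular matrix. Contactin-associated proteins are neurexin-like transmembrane proteins. On myelinated axons, Cntn1 and Cntnap1 form the axonal side of the paranodal junction, and Cntn2 with Cntnap2 organises potassium channels at the juxtaparanode, while other members are known from axon guidance and synapses.

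The 6 matrices held 41974 barcodes, and 34218 nuclei with 10516479 to 77238704 UMIs (unique molecular identifiers) per library were kept. Of these, 25409 nuclei (74.3%) fell in 20 classes named from marker genes and written as "-like", 4497 (13.1%) in clusters with markers of more than 1 class and 4312 (12.6%) in 7 clusters called by number. The medium spiny neurons (MSN), which project from the striatum, formed a D1 class and a D2 class by their dopamine receptor. The members were left out when nuclei were clustered, and the classes do not rest on them. The labels word the libraries in 2 ways, here called set A (male pool 1, female pool 3) and set B (the other 4), and do not say what this stands for. Barcodes above the limit on mitochondrial UMIs made up 1.55% and 2.28% of the set A libraries and 13.1% to 40.7% of those in set B. Glutamatergic-like nuclei came almost wholly from set A, with 1522 and 406 of 1930. A pair of libraries shared 3 to 52 cell barcodes. Levels below are counts-per-million values (CPM), from the UMIs of a gene over all UMIs of the nuclei of 1 class in 1 library, given for libraries with at least 20 nuclei of that class. Values of the 3 pools of a sex are given in the order of their numbers. CPM of different genes were not set against each other, since UMIs also depend on how each gene was annotated and captured.

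Each member had its own order of classes, shown in the plot of levels by class and library. Over the 15 classes measured in at least 3 libraries, the class with the highest mean stood 127 times above the lowest for Cntn2, 103 times for Cntnap4, 48.8 times for Cntn5, 38.5 times for Cntn6 and 25.5 times for Cntn1. The same ratio was 13.8 for Cntn4, 13.2 for Cntn3 and 7.10 for Cntnap1. Most neighbours in these orders overlapped between libraries. Of the 14 neighbouring pairs, 2 did not overlap for each of Cntn1, Cntn6 and Cntnap4, 1 for each of Cntn2, Cntn3, Cntn4 and Cntn5, and 0 for Cntnap1. Statements below on where a member was highest, or which class came next, are about these classes, and smaller classes and clusters are left out of them unless named.

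**Figure D1:**
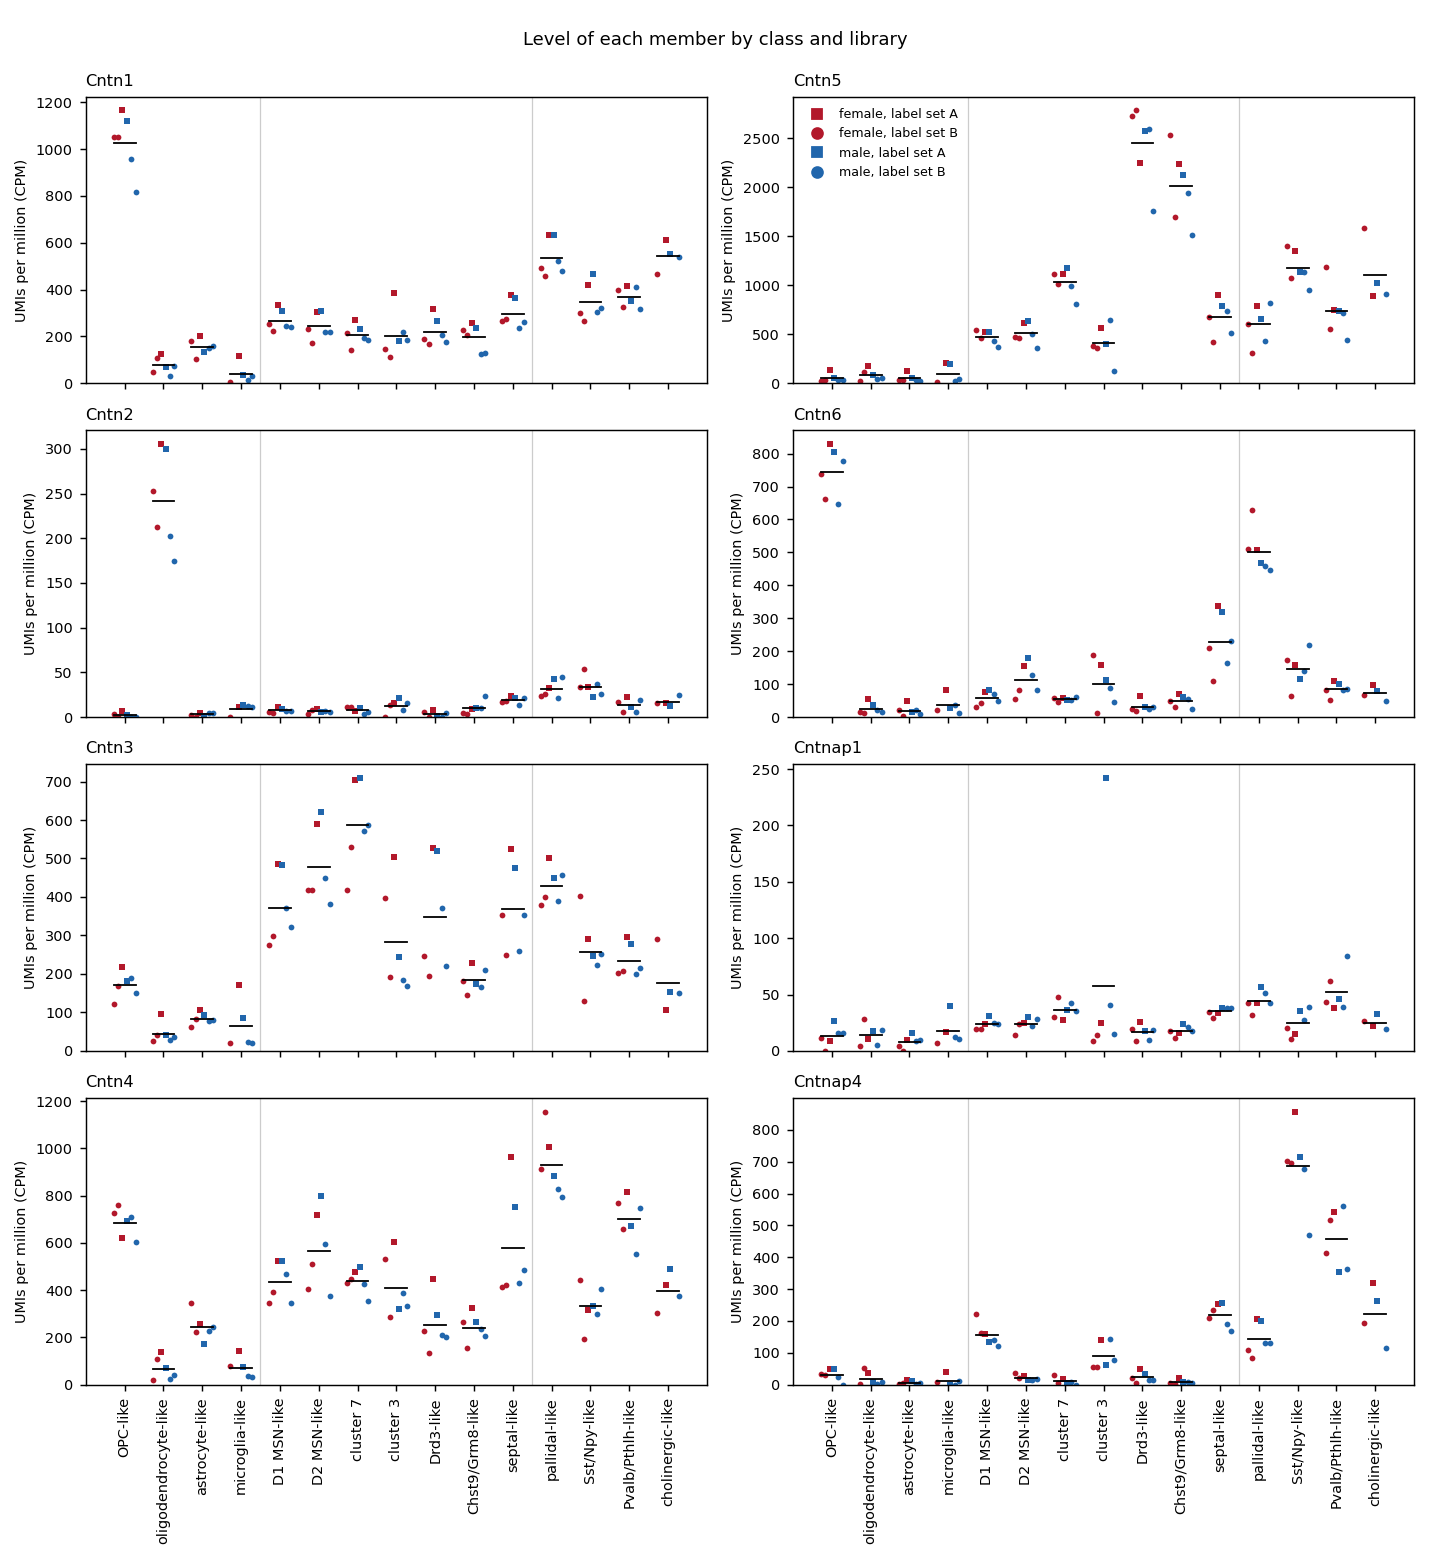
Each panel plots 1 gene, with its level in CPM on a linear axis from 0 against 15 classes. Points are libraries (red female, blue male, squares label set A, circles label set B), and black lines are means over libraries. Grey lines only separate glia-like classes, the classes from D1 MSN-like to septal-like, and those from pallidal-like to cholinergic-like. Cntn1 and Cntn6 peaked in OPC-like nuclei, Cntn2 in oligodendrocyte-like, Cntn5 in Drd3-like and Cntnap4 in Sst/Npy-like nuclei, and the single high point of Cntnap1 in cluster 3 is male pool 1 at 242 CPM.

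Cntn1, the contactin of the paranodal axon membrane and a known ligand of Notch, was highest among these classes in nuclei like oligodendrocyte precursor cells (OPC), the dividing glia from which oligodendrocytes form. In OPC-like nuclei Cntn1 stood at 1051, 1051 and 1166 CPM in females and at 1120, 957 and 815 in males. In oligodendrocyte-like nuclei it stood at 47.6, 109 and 126 CPM in females and at 68.7, 32.9 and 72.7 in males. Every OPC-like value was therefore above every oligodendrocyte-like value, and male pool 3 was the lowest of the OPC-like ones. The difference was 13.1-fold (log2 3.71, SE 0.19, edgeR adjusted p = 2.8e-10, higher in 6 of 6 libraries). The next classes in the order of Cntn1 were cholinergic-like nuclei at 542 ± 58.8 CPM (SD, n = 4) and pallidal-like nuclei at 535 ± 78.6 (SD, n = 6), which overlapped. D1 MSN-like nuclei held 268 ± 43.8 CPM (SD, n = 6) of Cntn1 and microglia-like nuclei 40.3 ± 44.3 (SD, n = 5). Cluster 48, with 38 nuclei and fewer than 20 in every library, had 242 UMIs of Cntn1 pooled over libraries, or 1575 CPM, above the 1075 CPM of OPC-like nuclei pooled in the same way. This cluster had 4 of 6 oligodendrocyte markers above the other nuclei. It was left unnamed because markers of another class led, and its leading genes included Tns3 and Enpp6.

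Cntn6, a contactin also described as a Notch ligand in the oligodendrocyte lineage, had its peak in the same class. Cntn6 in OPC-like nuclei was 738, 662 and 829 CPM in females and 804, 647 and 778 in males. In oligodendrocyte-like nuclei it was 13.8, 11.5 and 54.9 CPM in females and 37.2, 21.1 and 14.5 in males. The classes did not overlap, and within the oligodendrocyte-like class the set A libraries were the highest. OPC-like nuclei were 25.1-fold higher for Cntn6 than oligodendrocyte-like nuclei (log2 4.65, SE 0.22, edgeR adjusted p = 8.2e-11, higher in 6 of 6 libraries). Astrocyte-like nuclei stood 32.1-fold below OPC-like nuclei, at 19.3 ± 15.6 CPM (SD, n = 6; log2 -5.00, SE 0.21, edgeR adjusted p = 3.4e-15). The second class for Cntn6 was pallidal-like at 503 ± 66.9 CPM (SD, n = 6), below every OPC-like library and above every library of the septal-like class, which had 228 ± 88.1.

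Cntn2, the contactin of the juxtaparanode that is known to lie on both the axon and the glial membrane, showed the opposite order in this lineage. Oligodendrocyte-like nuclei had 253, 212 and 305 CPM of Cntn2 in females and 300.3, 203 and 174 in males. OPC-like nuclei had 1, 0 and 5 UMIs of Cntn2 in the female pools and 1, 0 and 0 in the male pools, at 0 to 6.49 CPM. The zeros of female pool 2, male pool 2 and male pool 3 allow up to 22.8, 11.9 and 15.6 CPM (3 counts per library), by counting error only. Every oligodendrocyte-like library was thus above every OPC-like one, with a fitted log2 difference of -6.47 for OPC-like minus oligodendrocyte-like nuclei (SE 0.27, edgeR adjusted p = 2.7e-11, lower in 6 of 6 libraries), a value that depends on the prior count. The next class in the order of Cntn2 was Sst/Npy-like at 34.1 ± 10.9 CPM (SD, n = 6).

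The other members split in the same contrast. Of 8 members, 5 were higher and 2 lower in OPC-like than in oligodendrocyte-like nuclei, where 47.3% of all genes tested were called, so 7 of 8 stands beside a high background. Cntn4, a contactin known from axon guidance, was 10.6-fold higher in OPC-like nuclei, at 686 ± 62.6 against 67.3 ± 48.4 CPM (SD, n = 6; edgeR adjusted p = 9.0e-08). Cntn3 was 3.47-fold higher, at 171 ± 33.0 against 44.3 ± 25.9 CPM (SD, n = 6; edgeR adjusted p = 4.0e-07). Neither of these 2 genes overlapped between the classes. The calls of Cntnap4 (log2 1.14, edgeR adjusted p = 0.047) and Cntn5 (log2 -0.65, edgeR adjusted p = 0.0079) rested on low levels with overlapping libraries (Cntnap4 higher in 4 of 6 and Cntn5 lower in 5 of 6), and they were lost under 9 and 2 of the alternative settings. Without female pool 1, male pool 1 or male pool 2 the edgeR adjusted p of Cntnap4 was 0.12, 0.32 and 0.090 (log2 0.66 without male pool 1). Cntn5 was not called without library as a block (edgeR adjusted p = 0.15) nor in set B alone (0.076). Cntnap1 did not differ beyond its error (log2 0.097, SE 0.41, edgeR adjusted p = 0.87).

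Nuclei like committed OPC, which led in Bcas1, Enpp6 and Bmp4, numbered only 35 and reached 20 in no library, so this class has no test. Pooled over libraries they held 16 UMIs of Cntn1 among 133497, or 119.9 CPM, below every OPC-like library and within the range of the oligodendrocyte-like ones. Cntn6 had 18 UMIs (135 CPM), between both classes, and Cntn2 2 UMIs (15 CPM).

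**Figure D2:**
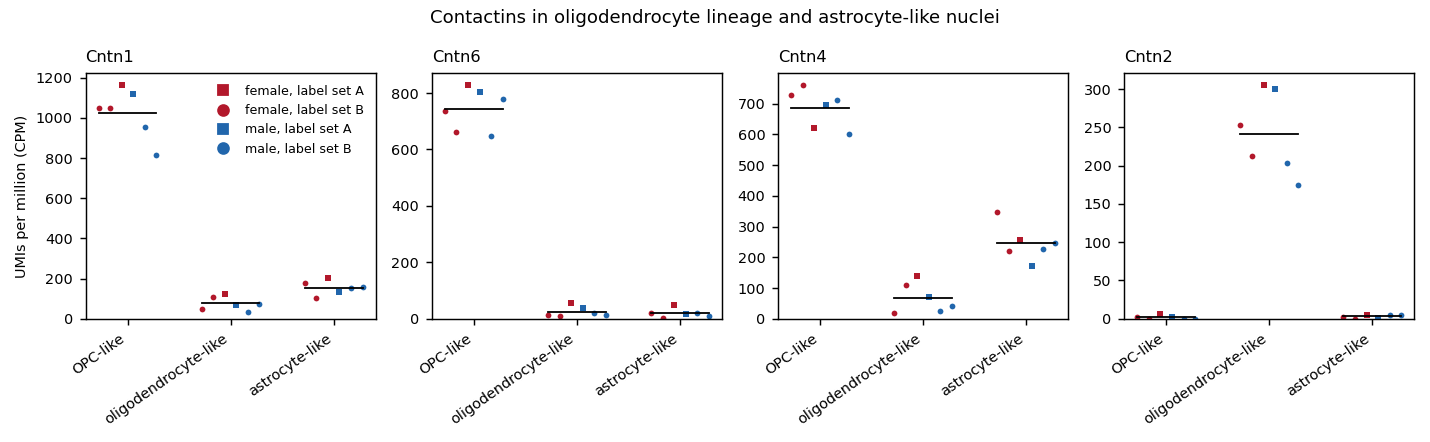
Level of Cntn1, Cntn6, Cntn4 and Cntn2 in CPM (linear axes from 0) in OPC-like, oligodendrocyte-like and astrocyte-like nuclei. Points are libraries coloured by sex and shaped by label set, and black lines are means. Cntn1 and Cntn6 fell from OPC-like to oligodendrocyte-like nuclei in all 6 libraries, from means of 1027 to 76.1 and 743 to 25.5 CPM, and Cntn2 rose from 1.90 to 241 CPM.

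Astrocyte-like nuclei were lower than OPC-like nuclei for 5 of the 6 members tested and higher for 0, against 44.6% of all genes called in either direction. Cntn1 was 155 ± 34.9 CPM in astrocyte-like nuclei, 6.03-fold below OPC-like nuclei (SD, n = 6; edgeR adjusted p = 6.3e-14). Cntn4 held 245 ± 57.1 CPM, 2.58-fold lower, and Cntn3 83.5 ± 14.8 CPM, 1.89-fold lower (SD, n = 6; edgeR adjusted p = 2.6e-09 and 8.3e-07). Cntnap4 was 4.12-fold lower (edgeR adjusted p = 2.6e-05) from 6.64 ± 5.53 against 31.2 ± 18.3 CPM (SD, n = 6), with overlapping libraries. Cntn5 had log2 0.060 (SE 0.17, edgeR adjusted p = 0.96), and Cntn2 and Cntnap1 were too low to be tested. The astrocyte-like class joined 2 clusters, and Cntn1 was unequal between them. It was 51.0 to 120.2 CPM in 6 libraries of the larger cluster (1819 nuclei) and 316 to 475 CPM in 6 libraries of the smaller one (649 nuclei), with pooled levels of 82.5 and 399 CPM. The libraries of both clusters did not overlap for Cntn1, and with each class reduced to its largest cluster, an alternative added after the data were seen, astrocyte-like minus OPC-like nuclei had log2 -3.74 for Cntn1 (edgeR adjusted p = 3.5e-16). Cntn4 was 196 and 360.5 CPM in the same order.

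Shares of nuclei with at least 1 UMI, with each nucleus thinned to 1000 UMIs, went in the direction of the levels in the pairs given here. The pair of OPC-like and oligodendrocyte-like nuclei is given for Cntn2 only. Cntn1 was seen in 61.7% of 836 OPC-like nuclei (95% Wilson interval 58.4% to 65.0%) against 3.67% of 327 microglia-like nuclei (2.11% to 6.30%), and unthinned in 80.7% and 5.49% at median depths of 2236 and 1332 UMIs. Cntn6 was seen in 50.7% of OPC-like (47.3% to 54.1%) and 2.18% of astrocyte-like nuclei (1.66% to 2.86%). Unthinned, those shares of Cntn6 were 75.8% and 5.59%, at median depths of 2236 and 2115 UMIs. Cntn2 was seen in 23.4% of oligodendrocyte-like (21.9% to 24.9%) and 0.359% of OPC-like nuclei (0.122% to 1.05%). Unthinned, Cntn2 was in 38.5% and 0.788% of those nuclei, at median depths of 1714 and 2236 UMIs. These intervals cover counting error only.

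The windows in front of Cntn1 and Cntn6, both highest in OPC-like nuclei, and of Cntn2, highest in oligodendrocyte-like nuclei, show what letters the members with these peaks carry next to their starts. Each is the 250 bases before the RefSeq start on assembly GRCr8, a later build than that of the counts, at chr7:125252060-125252309 on the plus strand for Cntn1, chr4:138911317-138911566 on the plus strand for Cntn6 and chr13:46528026-46528275 on the minus strand for Cntn2. The sequences are 5′ to 3′, and capitals mark the E-box letters CAGCTG.
Cntn1: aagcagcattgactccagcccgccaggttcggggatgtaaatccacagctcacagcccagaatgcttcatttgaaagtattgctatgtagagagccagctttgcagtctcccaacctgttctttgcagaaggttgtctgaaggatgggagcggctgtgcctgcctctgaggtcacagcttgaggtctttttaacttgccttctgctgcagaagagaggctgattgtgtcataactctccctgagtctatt
Cntn6: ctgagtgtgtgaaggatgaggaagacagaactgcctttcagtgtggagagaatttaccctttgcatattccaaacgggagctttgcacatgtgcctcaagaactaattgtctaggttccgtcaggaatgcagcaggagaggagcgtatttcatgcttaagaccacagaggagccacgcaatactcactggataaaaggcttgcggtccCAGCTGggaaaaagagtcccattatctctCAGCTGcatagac
Cntn2: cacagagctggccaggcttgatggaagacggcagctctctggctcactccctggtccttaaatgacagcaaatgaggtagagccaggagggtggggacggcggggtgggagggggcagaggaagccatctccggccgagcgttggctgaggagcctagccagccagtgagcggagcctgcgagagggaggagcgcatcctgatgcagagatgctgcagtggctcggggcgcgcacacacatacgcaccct
Cntn6 held 2 E-boxes, 37 and 8 bases before the start at their nearest base, while 12% of 33469 rat windows of this length held at least 1. Neither Cntn1 nor Cntn2 held any of the 4 motifs searched on both strands, the E-box CAGCTG, the SOX letters ACAAAG (16.3% of all windows), the GC box GGGCGG (30.5%) and the TATA box TATAAA (12.9%). GC content was 50% for Cntn1 with 3 CG pairs, 48% for Cntn6 with 5 and 64.4% for Cntn2 with 13. Among the 3 other members with a window, Cntn3 held 2 SOX matches and Cntn4 3 GC boxes. A match is a description of letters and no evidence of binding.

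Cntn5, a contactin known from synapses of sensory circuits, was highest in 2 classes of striatal neurons outside the D1 and D2 classes. Drd3-like nuclei, marked by the dopamine receptor Drd3, had 2727, 2786 and 2243 CPM of Cntn5 in females and 2577, 2591 and 1757 in males. D1 MSN-like nuclei of the same libraries had 545, 462 and 523 CPM and 523, 436 and 369 CPM. The classes did not overlap, and male pool 3 was the lowest library in both. Cntn5 was 5.02-fold higher in Drd3-like nuclei (log2 2.33, SE 0.080, edgeR adjusted p = 8.6e-17, higher in 6 of 6 libraries). Chst9/Grm8-like nuclei, marked by Chst9, Grm8 and the opioid receptor Oprm1, had 1517 to 2533 CPM with a median of 2035, overlapping the Drd3-like class. They were 4.08-fold above D1 MSN-like nuclei (log2 2.03, SE 0.052, edgeR adjusted p = 1.0e-29). Sst/Npy-like nuclei came next among the classes measured in at least 3 libraries, at 954 to 1401 CPM, median 1137, below every Chst9/Grm8-like library. Measured in the set A libraries only, cluster 39 had 1608 ± 159 CPM of Cntn5 and interneuron-like nuclei of the CGE class 1333 ± 247 (SD, n = 2), both means above that of the Sst/Npy-like class, 1176.

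Cntn5 stood alone in its direction in these 2 classes. In Drd3-like against D1 MSN-like nuclei, 1 of 8 members was higher and 6 were lower (36.7% of all genes called). Cntnap4 was 5.01-fold lower in Drd3-like nuclei, at 22.8 ± 15.8 against 157 ± 35.6 CPM, and Cntn4 1.75-fold lower, at 253 ± 109 against 434 ± 82.6 CPM (SD, n = 6; edgeR adjusted p = 4.6e-11 and 2.1e-06). Both fell in 6 of 6 libraries, Cntnap4 with no overlap and Cntn4 with overlap. The other lower members were Cntn2 (log2 -1.17), Cntn6 (-0.90), Cntnap1 (-0.46) and Cntn1 (-0.30). The call of Cntnap1 was lost under 8 alternatives, among them leaving out female pool 1 or any male pool, and Cntn2 was not called without male pool 1 (log2 -0.73, edgeR adjusted p = 0.16) or in set B alone (0.20).

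The Drd3-like class joined 2 clusters that differed in depth and in their contactins. The larger held 1200 nuclei at a median of 2736 UMIs and the smaller 276 at 6311 UMIs, while the median of D1 MSN-like nuclei was 5452. Cntn5 was 2999 CPM in the larger and 1342 in the smaller cluster, Cntnap4 15 and 70.3 CPM, and Cntn4 222 and 537 CPM, pooled over libraries, so that the smaller cluster lay on the side of the D1 MSN-like levels for each. With each class reduced to its largest cluster, the alternative described above, Cntn5 was log2 2.49 higher, Cntnap4 log2 -3.36 and Cntn4 log2 -1.17 (edgeR adjusted p = 8.5e-21, 5.0e-18 and 1.5e-11). Cntn6 moved from log2 -0.90 to -1.62, and Cntn3, not called in the whole class (log2 -0.15, edgeR adjusted p = 0.22), was then lower (log2 -0.26, edgeR adjusted p = 0.027).

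In Chst9/Grm8-like against D1 MSN-like nuclei, 1 member was higher and 5 lower of 8 (36.4% of all genes called). Cntnap4 was 14.1-fold lower at 8.08 ± 6.26 CPM, Cntn3 2.14-fold lower at 184 ± 29.7 CPM and Cntn4 1.82-fold lower at 242 ± 58.9 CPM (SD, n = 6; edgeR adjusted p = 7.6e-23, 2.1e-14 and 8.2e-13), and none of these 3 genes overlapped between the classes. Cntnap1 (log2 -0.47) was not called without female pool 3 (edgeR adjusted p = 0.12), in set B alone (0.36) or by DESeq2 (adjusted p = 0.077), and Cntn6 (log2 -0.28, edgeR adjusted p = 0.054) was called without female pool 1 (0.0030) or male pool 3 (0.033) and with the members clustered on (log2 -0.51, edgeR adjusted p = 0.00042). The comparisons of the Drd3-like and Chst9/Grm8-like classes share the D1 MSN-like counts.

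Thinned to 1000 UMIs per nucleus, Cntn5 was seen in 83.6% of 1443 Drd3-like nuclei (81.6% to 85.4%) and in 6.72% of 2293 astrocyte-like nuclei (5.76% to 7.82%). Unthinned, the shares were 95.5% and 12.9% at median depths of 3109 and 2115 UMIs. D1 MSN-like nuclei, the class of the tests above, are not part of this comparison of shares.

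Cntn3 and Cntn4, also contactins of neuronal membranes, varied more evenly than Cntn5 over neuron-like classes. Cntn3 was highest in cluster 7, a numbered cluster led by Mdfic, Eya2 and Foxp2, at 418, 530 and 705 CPM in females and 710.4, 570.4 and 588 in males. D2 MSN-like nuclei followed at 479 ± 101 CPM and pallidal-like nuclei at 429.6 ± 47.3 (SD, n = 6), both overlapping cluster 7. The set A libraries were the highest in cluster 7 and in both MSN-like classes. Cntn4 was highest in pallidal-like nuclei at 793 to 1156 CPM with a median of 898, followed by Pvalb/Pthlh-like nuclei at 554 to 814, which overlapped, and OPC-like nuclei at 602 to 761. The glutamatergic-like nuclei of the set A libraries had 1088 ± 5.47 CPM of Cntn4 (SD, n = 2), 1137 ± 48.0 of Cntn5 and 469.7 ± 91.4 of Cntn6. In cluster 7 against D1 MSN-like nuclei, a comparison chosen after the data were seen, 3 of 8 members were higher and 2 lower (24% of all genes called). Cntn5 was 2.16-fold higher and did not overlap, Cntn3 1.56-fold higher and Cntnap4 12.6-fold lower (edgeR adjusted p = 6.1e-18, 3.0e-11 and 1.0e-18). The higher call of Cntnap1 (log2 0.47) was lost without male pool 2 (edgeR adjusted p = 0.058) and with the members clustered on (log2 0.23, edgeR adjusted p = 0.22). Cntn6 (log2 -0.28, not called) was called without female pool 1 (log2 -0.38, edgeR adjusted p = 0.0030) or male pool 3 (0.047). With the members clustered on, Cntn6 (log2 -0.57), Cntn4 (-0.24) and Cntn2 (-0.59) were called lower in cluster 7 (edgeR adjusted p = 0.0012, 0.0018 and 0.049).

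Cntnap4, a contactin-associated protein known from the synapses of GABAergic interneurons, separated D1 from D2 neurons. D1 MSN-like nuclei had 222, 162 and 160 CPM of Cntnap4 in females and 133, 142 and 121 in males. D2 MSN-like nuclei had 36.0, 22.0 and 28.8 CPM in females and 15.6, 14.7 and 16.8 in males. Every D1 value exceeded every D2 value, with female pool 1 highest among the D1 values. The difference was 6.90-fold (log2 2.79, SE 0.068, edgeR adjusted p = 1.5e-31, higher in 6 of 6 libraries). Thinned to 1000 UMIs, 14.1% of D1 (13.1% to 15%) and 2.02% of D2 MSN-like nuclei (1.61% to 2.53%) had a UMI of Cntnap4, against 1.05% of astrocyte-like nuclei (0.704% to 1.55%). Unthinned, these shares were 44.0%, 8.61% and 1.90% at median depths of 5452, 5266 and 2115 UMIs. Markers of the Sst/Npy-like class, where Cntnap4 was highest, were low in both: all 4 summed to 30.3 to 88.8 CPM in D1 and 28.3 to 70.9 CPM in D2 MSN-like nuclei. Of these markers 0 was at 0 in all D1 and 1 in all D2 MSN-like libraries, and their part in the difference was not tested.

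**Figure D3:**
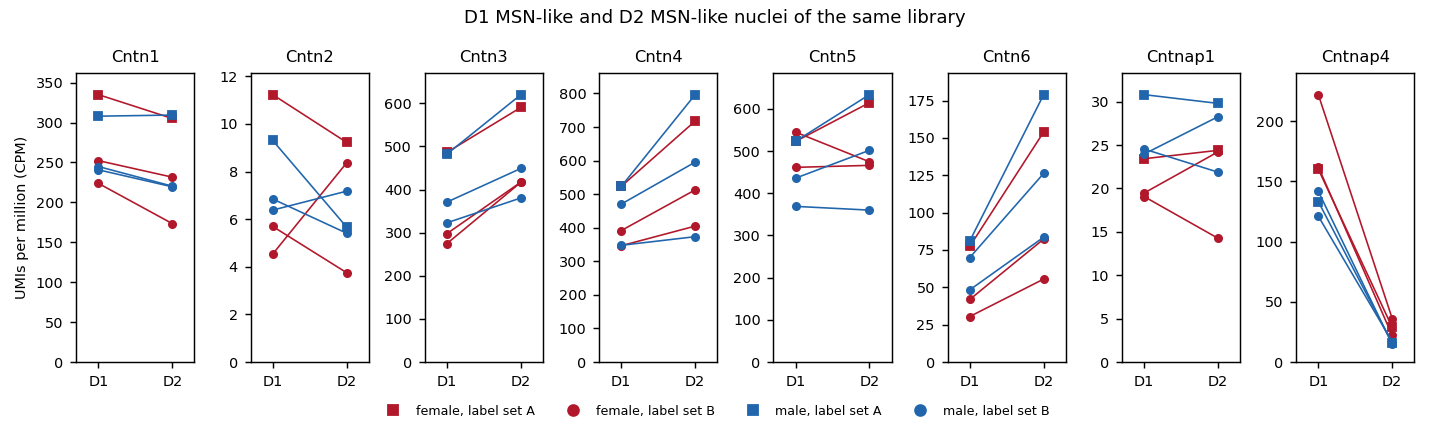
Level of each of the 8 members in D1 and D2 MSN-like nuclei, in CPM on linear axes from 0 that differ between panels. Each line joins both classes of 1 library, coloured by sex with squares for label set A and circles for label set B. Cntnap4 fell from 157 to 22.3 CPM on average between D1 and D2 nuclei, and Cntn6, Cntn3 and Cntn4 were higher in D2 nuclei in all 6 libraries.

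Of 8 members, 2 were higher and 3 lower in D1 than in D2 MSN-like nuclei (15.1% of all genes called), and a fit without library as a block called 3. Cntn6 was 1.99-fold lower in D1 nuclei (log2 -1.0, SE 0.051, edgeR adjusted p = 4.7e-20, lower in 6 of 6 libraries). Its levels were 30.5, 41.9 and 77.4 CPM in female and 81.1, 69.9 and 48.3 in male D1 MSN-like nuclei, and 55.5, 82.3 and 154 CPM and 179, 126 and 83.6 in the D2 MSN-like nuclei of the same libraries. The classes overlapped across libraries, and the order held within each library. Cntn3 and Cntn4 were 1.3-fold and 1.31-fold lower in D1 nuclei in 6 of 6 libraries (edgeR adjusted p = 8.3e-12 and 2.6e-11). For Cntn4 the log2 difference moved from -0.39 to -0.21 when the members were clustered on, and it was not called without the block (edgeR adjusted p = 0.12). The call of Cntn1 (log2 0.13, edgeR adjusted p = 0.012) was lost under 5 of the alternative settings, among them leaving out female pool 2, female pool 3 or male pool 3 (0.083, 0.069 and 0.057). Cntn5 did not pass (log2 -0.11, SE 0.039, edgeR adjusted p = 0.053), but did without female pool 1 (log2 -0.17, edgeR adjusted p = 0.00017) or male pool 3 (0.032). Cntn2 and Cntnap1 did not pass (log2 0.25 and -0.00076, SE 0.16 and 0.087, edgeR adjusted p = 0.38 and 1.0), though Cntn2 was called with the members clustered on (log2 0.52, edgeR adjusted p = 0.021).

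The D2 MSN-like class had a small cluster of 203 nuclei, led by Dach1 and Drd2, beside its main cluster of 3434. Pooled over libraries, Cntn5 was 1022 CPM there against 525 in the main cluster, Cntn4 304 against 660.2, Cntn6 30.9 against 139 and Cntnap4 3.09 against 23.8. Against the main D2 cluster alone, Cntn5 in D1 MSN-like nuclei differed by log2 -0.047 (edgeR adjusted p = 0.51) and Cntnap4 by 2.71 (1.2e-30).

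Among the classes measured in at least 3 libraries, those like interneurons held the highest levels of Cntnap4. Sst/Npy-like nuclei had 704, 696 and 857 CPM in females and 714, 679 and 471 in males. Pvalb/Pthlh-like nuclei had 415, 518 and 541 CPM in females and 353, 560 and 364 in the male pools, overlapping the Sst/Npy-like class. Pvalb/Pthlh-like nuclei were 1.42-fold below Sst/Npy-like nuclei (log2 -0.50, SE 0.12, edgeR adjusted p = 0.0017, lower in 6 of 6 libraries), a call lost among the set B libraries alone (log2 -0.40, edgeR adjusted p = 0.075). Both were above cholinergic-like nuclei at 222 ± 87.3 CPM (SD, n = 4). In the set A libraries, the only ones with 20 or more such nuclei, Cntnap4 was 683 ± 7.22 CPM in cluster 39, 551 ± 31.5 in cluster 18 and 494 ± 97.1 in CGE interneuron-like nuclei (SD, n = 2). Cluster 40 reached 20 nuclei in female pool 3 alone, where its 26 nuclei had 1134 CPM of Cntnap4, above every Sst/Npy-like library. Pooled over libraries it held 750.3 CPM, against 744 in Sst/Npy-like nuclei.

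Between the 2 interneuron-like classes, 2 of 7 members tested were higher and 3 lower in Pvalb/Pthlh-like than in Sst/Npy-like nuclei (28.9% of all genes called). Cntn4 had 554 to 814 CPM, median 708, in Pvalb/Pthlh-like nuclei against 193 to 442, median 324, in Sst/Npy-like nuclei, with no overlap (2.31-fold, log2 1.21, SE 0.12, edgeR adjusted p = 4.4e-09). Cntn5 was 1.5-fold lower (edgeR adjusted p = 0.00021), and Cntn6 1.43-fold lower (edgeR adjusted p = 0.018), the last lost by DESeq2 and without female pool 1 or male pool 3 (adjusted p 0.069 and 0.056) and log2 -0.90 in set B alone. Against D1 MSN-like nuclei, 6 of 8 members were higher and 1 lower in Pvalb/Pthlh-like nuclei (36.5% of all genes called). Cntnap4 was 2.82-fold, Cntnap1 1.84-fold and Cntn4 1.54-fold higher, none of them overlapping, and Cntn3 1.68-fold lower at 233 ± 42.6 CPM (SD, n = 6; edgeR adjusted p = 7.8e-15, 0.00075, 6.0e-06 and 2.7e-07). The higher call of Cntn6 (log2 0.43, edgeR adjusted p = 0.020) was lost under 10 alternatives, among them leaving out female pool 1, 2 or 3 or male pool 1 (0.050, 0.056, 0.16 and 0.051). For Cntn4 the log2 difference moved from 0.63 to 0.39 when the members were clustered on. In cholinergic-like nuclei, fitted on 4 libraries, 2 of 8 members were higher and 1 lower than in D1 MSN-like nuclei (36.1% of all genes called). Cntn5 was 1.99-fold higher, Cntn1 1.72-fold higher and Cntn3 2.63-fold lower there (edgeR adjusted p = 3.2e-05, 6.0e-05 and 0.00064). Cntnap4 (log2 0.38, not called) was called without female pool 1 (log2 0.76, edgeR adjusted p = 0.00066) and Cntn4 (log2 -0.29, not called) without male pool 3 (log2 -0.38, 0.027). Both were called with the members clustered on (log2 0.78 and -0.43, edgeR adjusted p = 0.0064 and 0.010).

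Cntnap1, the partner of Cntn1 at the paranode, varied least between the classes. Its highest mean, 57.5 ± 91.2 CPM (SD, n = 6) in cluster 3, came only from male pool 1, which had 728 UMIs or 242 CPM in 1740 nuclei, while the other 5 libraries had 9.01 to 40.3 CPM from 1 to 8 UMIs. Pvalb/Pthlh-like nuclei came next, with 43.7, 62.0 and 38.0 CPM in females and 46.0, 38.8 and 84.0 in males, from 7 to 31 UMIs per library. All 6 values were above those of D1 MSN-like nuclei, at 19.1 to 30.8 CPM. Against Sst/Npy-like nuclei Cntnap1 was 2.08-fold higher in Pvalb/Pthlh-like nuclei (log2 1.06, SE 0.28, edgeR adjusted p = 0.0048, higher in 6 of 6 libraries, with overlap), and not called in set B alone (log2 1.18, adjusted p = 0.077) or without female pool 3 (0.052).

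D1 MSN-like and oligodendrocyte-like nuclei differed for each of the 8 members tested. In D1 MSN-like against oligodendrocyte-like nuclei, 7 of 8 members were higher and Cntn2 was lower (66.6% of all genes called), and leaving out any library kept the count at 8. Cntnap4 was 10.2-fold, Cntn3 8.12-fold, Cntn4 7.06-fold, Cntn5 6.39-fold and Cntn1 3.5-fold higher, none of them overlapping between the classes, while Cntn6 and Cntnap1 overlapped, and Cntn2 35.6-fold lower (edgeR adjusted p = 7.9e-06, 2.5e-08, 1.5e-06, 8.6e-06, 3.0e-06 and 4.5e-11). The oligodendrocyte-like class held a small cluster of 158 nuclei, led by Creb5 and Opalin, with 271 CPM of Cntn1 pooled over libraries against 64.3 in its main cluster, and 173 against 277 CPM of Cntn2. The plot of all class contrasts sets the members side by side.

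**Figure D4:**
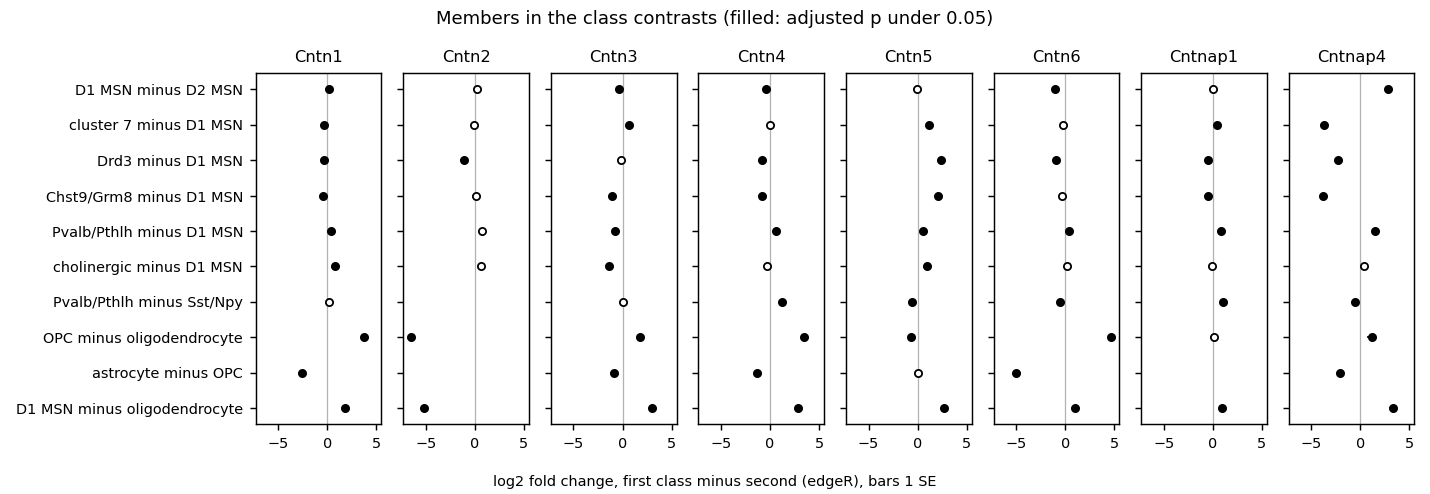
Log2 fold change of each member (columns) in 10 class contrasts (rows), first class minus second, from edgeR, with bars of 1 SE that are mostly smaller than the points. Filled points passed an adjusted p of 0.05, open points did not, and a missing point was too low to be tested. Cntn5 is the only member called to the right of 0 in the Drd3 and Chst9/Grm8 rows, and Cntn2 is far left in both rows that involve oligodendrocyte-like nuclei, at -6.47 and -5.16.

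No member was called between females and males. Sex was tested in 14 fits, all nuclei together and 13 classes or numbered clusters, with the label set as a term. Of 97 tests of members, 0 passed an edgeR adjusted p of 0.05, DESeq2 also called 0, and 9 (9.28%) had an unadjusted p under 0.05 (0.0897% of all genes called over these fits, 5.94% with an unadjusted p under 0.05). A further 15 tests were not made because the gene was too low. The lowest adjusted p was 0.206, for Cntn3 in cluster 3 (0.71% of all genes called). In all nuclei (0.0419% of all genes called), Cntnap4 was 127, 108 and 143 CPM in females and 116, 90.9 and 76.3 in males. The groups overlapped, with male pool 1 above female pool 2, and the log2 difference was 0.49 (SE 0.15, edgeR adjusted p = 0.63). Within label set A the difference in log2 CPM was 0.30 and within set B 0.49. Cntnap4 was above 0 in 11 of 12 fits and Cntnap1 in 0 of 9. All fits use the same pools and share nuclei through the fit of all nuclei, so they are not separate tests of sex. In all nuclei Cntnap1 was 21.8, 22.2 and 24.6 CPM in female and 42.1, 25.1 and 26.9 in male pools (log2 -0.36, SE 0.16, edgeR adjusted p = 0.63). Those groups did not overlap, and without male pool 1 or female pool 3 the difference was log2 -0.17 and -0.16.

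The largest fitted sex difference was that of Cntnap4 in oligodendrocyte-like nuclei (0.0719% of all genes called), log2 1.93 with SE 0.76 (edgeR adjusted p = 0.99). It came from 4, 9 and 91 UMIs in females and 13, 1 and 6 in males, at 3.46, 51.6 and 37.3 and at 7.57, 1.32 and 7.93 CPM. Female pool 1 lay within the male range, and without it the difference was log2 2.62 (edgeR adjusted p = 0.00011). Beside this, some lists of neuron markers varied in the same nuclei. The 7 of 7 markers of MSN of any type summed to 175 to 2201 CPM in females and 387 to 659 CPM in the male pools. The 3 of 3 markers of any neuron summed to 289 to 1835 and 309 to 650. Those of any GABAergic neuron, 3 of 3, summed to 178 to 631 and 208 to 260.5. No marker of these lists was at 0 in either sex. The 4 of 4 markers of the Sst/Npy-like class, where Cntnap4 was highest, summed to 58.1 to 166 CPM in females. In males they summed to 54.7 to 154, with 1 marker at 0 in all male pools. The part of these markers in the difference was not tested. The test of a class difference that depends on sex, added after the data were seen, gave 0 calls among 77 tests of members by edgeR (0.000854% of all genes called), 7 with an unadjusted p under 0.05.

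**Figure D5:**
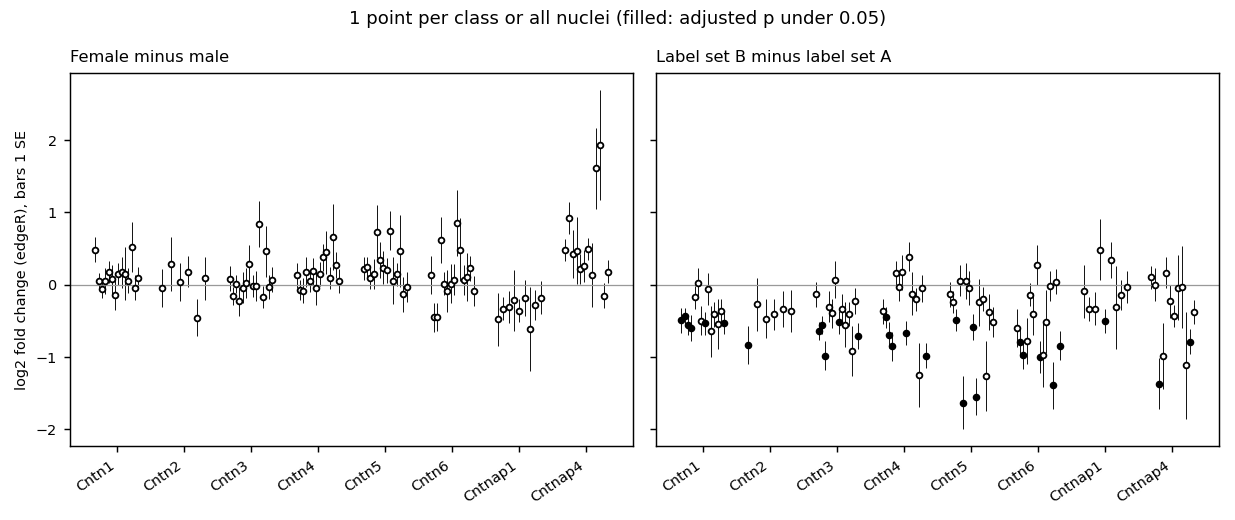
Log2 fold change of each member from edgeR, female minus male on the left and label set B minus A on the right, with 1 point per fit (all nuclei or a class) and bars of 1 SE. Filled points passed an adjusted p of 0.05. No point is filled for sex, and 29 of 97 are filled for the label set, all below 0.

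Members were called between the label sets in several classes. Of the 97 tests, 29 were called and all 29 were lower in set B, 29.9% against 20.5% of all genes called over these fits. Cntn1 was called in 6 of 14 fits, Cntn3, Cntn4 and Cntn6 in 5 each, Cntn5 in 4, Cntnap4 in 2 of 12, and Cntn2 and Cntnap1 in 1 each. The fit of all nuclei also takes in which classes each set holds. Glutamatergic-like nuclei, almost wholly from set A, had 442 CPM of Cntn6 pooled over libraries. They held 9166 of the 33440 UMIs of Cntn6 in all nuclei, and their part in the next difference was not tested. In all nuclei (31.2% of all genes called) Cntn6 was 107 ± 27.1 CPM in set B (SD, n = 4) and 204 ± 22.5 in set A (SD, n = 2; log2 -1.0, SE 0.22, edgeR adjusted p = 0.0094). Without female pool 3, male pool 1 or male pool 3 that adjusted p was 0.16, 0.067 and 0.050. Cntn4 in septal-like nuclei (20.6% of all genes called) was 437 ± 34.2 CPM in set B and 857 ± 151 in set A (log2 -0.98, edgeR adjusted p = 0.00063), not called without female pool 3 (0.17). Set A has 2 libraries, and without female pool 3, male pool 1 or male pool 3 the 29 calls became 2, 12 and 19, with a lone set A library assumed to vary like the others.

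The widest of these differences was that of Cntn5 in glia-like nuclei. In OPC-like nuclei (12% of all genes called), Cntn5 was 136 and 52.9 CPM in the set A libraries and 20.3, 30.5, 35.7 and 31.1 in the set B libraries, with no overlap (log2 -1.63, SE 0.37, edgeR adjusted p = 0.0042). In astrocyte-like nuclei (18.2% of all genes called) it was 127 and 58.0 CPM in set A and 21.6 to 35 in set B (log2 -1.55, SE 0.26, edgeR adjusted p = 0.00031). Without female pool 3 neither was called (log2 -0.59 and -1.06, edgeR adjusted p = 0.68 and 0.14), and without male pool 1 the OPC-like difference was log2 -2.46. By DESeq2 it was not called in OPC-like nuclei (adjusted p = 0.086), nor by edgeR without female pool 1 (log2 -1.11, edgeR adjusted p = 0.076). Some lists of neuron markers moved with it. In OPC-like nuclei the 3 of 3 markers of the Drd3-like class, where Cntn5 was highest, summed to 181 to 213 CPM in set A and 23.8 to 37.6 in set B. The 7 of 7 MSN markers summed to 1254 to 1275 and 581 to 929 CPM, and the 3 of 3 markers of any neuron to 1332 to 1636 and 960 to 1155. In astrocyte-like nuclei the same lists summed to 404 to 511 against 181 to 267 CPM, 1330 to 1346 against 700 to 1135, and 543 to 1044 against 224 to 321. The 3 of 3 markers of any GABAergic neuron did not move with it. They summed to 174 to 210 CPM in set A and 168 to 540 in set B in OPC-like nuclei. Their sums in astrocyte-like nuclei were 166 to 188 and 128 to 254 CPM. No marker of these lists was at 0 in either set, and their part in the result was not tested.

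Binding partners of contactins, 13 genes of which all were matched, moved in both directions between classes. In OPC-like against oligodendrocyte-like nuclei 9 were higher and 4 lower of 13 (47.3% of all genes called), with a median log2 difference of 2.75 against 0.0032 over all genes. Ptprz1, a receptor phosphatase bound by Cntn1, and Tnr, an extracellular matrix protein of the tenascin family that contactins bind, are named here after their values were seen. Ptprz1 was 3999 ± 233 CPM in OPC-like, 1683 ± 127 in astrocyte-like and 97.4 ± 62.8 in oligodendrocyte-like nuclei (SD, n = 6; OPC-like minus oligodendrocyte-like log2 5.41, edgeR adjusted p = 8.3e-11). Tnr was 1318 ± 245 CPM in OPC-like, 17.7 ± 14.7 in astrocyte-like and 25.5 ± 20 in oligodendrocyte-like nuclei (SD, n = 6; log2 5.68, edgeR adjusted p = 1.1e-10). Notch2, a receptor of the Notch family, was lower in the first class in 7 of 10 contrasts, among them OPC-like against oligodendrocyte-like nuclei (log2 -5.02, edgeR adjusted p = 2.5e-09), and higher in astrocyte-like than in OPC-like nuclei (log2 5.15, edgeR adjusted p = 3.4e-13). Ptprg, a receptor phosphatase bound by several contactins, was higher in 8 contrasts, with log2 3.32 for OPC-like minus oligodendrocyte-like and 1.51 for Pvalb/Pthlh-like minus D1 MSN-like nuclei (edgeR adjusted p = 1.1e-07 and 6.0e-16).

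Genes of the node, paranode and juxtaparanode, 17 of 17 matched, were more often called lower than higher in each class or cluster tested minus D1 MSN-like nuclei. In Drd3-like nuclei 0 were higher and 10 lower of 17 (36.7% of all genes called), with a median log2 difference of -0.42 against 0.017 over all genes. In Chst9/Grm8-like nuclei 4 were higher and 9 lower (36.4% of all genes called), and in Pvalb/Pthlh-like nuclei 3 and 8 (36.5%). Cholinergic-like nuclei had 2 higher and 8 lower (36.1%), and cluster 7 had 2 and 4 (24%). These comparisons share the D1 MSN-like counts. In D1 MSN-like against oligodendrocyte-like nuclei 11 were higher and 3 lower of 17, beside a background of 66.6% of all genes called, with a median of 1.72 against -0.043. Kcna1, a potassium channel subunit of the juxtaparanode, was lower in the first class in 7 of 10 contrasts, with log2 -1.27 in Drd3-like against D1 MSN-like nuclei (edgeR adjusted p = 4.6e-07), and 2.74 higher on the log2 scale in Pvalb/Pthlh-like than in Sst/Npy-like nuclei (edgeR adjusted p = 1.4e-06). Ank3, the ankyrin that anchors sodium channels at the node, was lower in 6, with log2 -0.77 in D1 MSN-like against oligodendrocyte-like nuclei (edgeR adjusted p = 0.00013). Scn8a, a sodium channel of the node, was lower in 6, yet log2 3.48 higher in D1 MSN-like than in oligodendrocyte-like nuclei (edgeR adjusted p = 3.1e-07). Between the sexes 0 of 156 tests of partners and 0 of 220 tests of node genes were called (0.0897% of all genes over these fits). Between the label sets, where 20.5% of all genes were called over these fits, 13 of the 156 partner tests were higher and 10 lower in set B, and of the 220 node tests 7 were higher and 53 lower.

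Across 23 classes and clusters that share their libraries, the genes most like each member were listed by Pearson's r of log2(CPM + 10) as a description. They were Dzip1, Mmp16 and Nlgn2 for Cntn1 (r = 0.89, 0.87 and 0.86), and Zdhhc20, Pacs2 and Ttll5 for Cntn2 (0.86, 0.86 and 0.85), each of them highest in the same class as the member. For Cntn3 they were Unc80, Ttc19 and Ryr2 (0.90, 0.90 and 0.87), for Cntn4 Scn8a, Dmd and Clip4 (0.87, 0.84 and 0.83), and for Cntn5 Nyap2, Ksr2 and Syp (0.93, 0.89 and 0.89). Cntn6 had the weakest matches, Pdzrn4, Cntn4 and Brinp3 (0.75, 0.75 and 0.73). Cntnap1 was most like Tmem179, Xpnpep3 and Nob1 (0.82, 0.79 and 0.78), and Cntnap4 like AABR07007642.1, Elavl2 and Rims4 (0.89, 0.87 and 0.86). Among the members themselves, the 5 highest r were 0.77 for Cntn1 with Cntn4, 0.75 for Cntn4 with Cntn6, 0.69 for Cntn3 with Cntn4, 0.68 for Cntn1 with Cntn6 and 0.68 for Cntn3 with Cntn5. For Cntn2 with each of the others it lay between -0.35 and 0.22, and for Cntn1 with Cntnap1, the paranodal pair, it was 0.086.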

How the data were processed

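Single-nucleus libraries were made with the 10x Genomics 3' kit (version 3.1) from 50 mg of pooled frozen tissue per library, cut at 200 µm, with 11 cycles of cDNA amplification, per the labels' protocols. The authors deposited raw UMI counts, as Cell Ranger 4.0.0 wrote them per the file headers, and did not normalize them. The genome build was rn6 per the submitters' processing notes. The annotation release, and whether reads in introns were counted, are not given in the sources used here.

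Nuclei were kept above limits of 500 UMIs and 300 genes and below 5% of mitochondrial UMIs. The share of doublets expected from loading (0.8% per 1000 nuclei, ranked by Scrublet score) was then removed. By its own threshold, Scrublet called 37.7% of the nuclei of female pool 3 that passed the limits, where 13.4% were removed. In the other libraries it called 0.0114% to 0.221%. Counts were clustered (scanpy 1.11.5, 3000 variable genes, 30 components, 20 exact neighbours weighted by the neighbours they share, Leiden resolution 1) without the members, their relatives and the 2 gene lists. Clusters were named by a fixed rule from 116 of 120 markers matched. The main clustering left out 69 genes. The alternative called "the members clustered on" left out 29, so it also clustered on the relatives and the 2 gene lists. A change under it cannot be assigned to the members alone. With the members clustered on in this way, 93.7% of named nuclei kept their class. Counts were summed per library and class and tested with edgeR 4.0.16 (quasi-likelihood, TMM factors, filterByExpr, Benjamini-Hochberg over all genes of a fit, threshold 0.05). Sex fits had the label set as a term and were made where each library held at least 20 nuclei. Class fits had library as a block. Both designs were also run on counts simulated without a label set effect, so those runs do not show how the fits act on these data.

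Replicate numbers were not used to pair the samples in the main fits. Over 16974 genes the deviations of libraries with the same number correlated at -0.756, 0.227 and -0.643, and those of the 2 set A libraries at 0.851. The pairs numbered 1 and 3 join libraries of different label sets, so their values cannot tell pairing from label set. Within set B, the pair numbered 2 stood at 0.227 and pairs of different numbers at 0.346 to 0.683. The members and lists were chosen with earlier results of these data known. All members were named, of each list at most 4 genes, and for each member the 3 genes most like it among genes reaching 20 CPM. The list genes named were those called in the same direction in the most contrasts, except Ptprz1 and Tnr, chosen after their values were seen. Alternatives were DESeq2 1.42.0, upper-quartile factors, no filter on low counts, a limit of 1000 UMIs per nucleus, doublets kept, the members clustered on, no block, set B alone and leaving out each library. The alternative that reduced each class to its largest cluster, the contrast of cluster 7 and the fits of class by sex were chosen after seeing the data. Sequences are from RefSeq, assembly GRCr8, and 6 of the 9 symbols had a window in front of the start.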

Additional observations from a re-analysis of the deposited data

How the results depend on the processing

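Of 58 member differences called between classes, 45 kept their call under all alternatives and 13 lost it under at least 1, and none of those called reversed. The count called between D1 and D2 MSN-like nuclei was 5, and 3 with no library as a block. Between Pvalb/Pthlh-like and Sst/Npy-like nuclei it was 5, and 3 in set B alone. Between cholinergic-like and D1 MSN-like nuclei it was 3, and 5 with the members clustered on. With each class reduced to its largest cluster these counts were 5, 5 and 3.

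Between sexes the count was 0, and 0 with the replicate block and 0 with no label set. It was 2 with no filter on low counts (Cntnap1 in cluster 3, and Cntnap4 in D2 MSN-like nuclei, log2 0.94) and 0 to 3 with a library left out, the 3 (Cntn4, Cntn5 and Cntnap4 in oligodendrocyte-like nuclei) without female pool 1. Between label sets it was 29, 40 with no filter and 2 to 33 with a library left out. The share of all genes called is given for the main fits only. Counts of members under alternatives, here and above, therefore stand without a background. A change in them was not told apart from a general change in calls. Sampling limits the genes of few UMIs, such as Cntn2 in OPC-like nuclei.

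Differences that had not been called reversed 35 times. In D1 minus D2 MSN-like nuclei, Cntn2 had log2 -0.093 in set B, and Cntnap1 0.099 in the largest clusters, 0.14 with the members clustered on, 0.0078 with no filter, 0.0061 in set B and -0.042 to 0.040 with a library left out. In Chst9/Grm8-like minus D1 MSN-like nuclei, Cntn2 had -0.18 with the members clustered on, -0.014 with no filter and -0.25 to 0.36 with a library left out. In Pvalb/Pthlh-like minus Sst/Npy-like nuclei, Cntn3 had -0.026 by DESeq2, -0.057 with no filter, -0.061 with no block, -0.074 with doublets kept, -0.25 in set B, -0.034 with upper-quartile factors and -0.083 to 0.19 with a library left out. In cholinergic-like minus D1 MSN-like nuclei, Cntn6 had -0.056 with the members clustered on, and Cntnap1 -0.097 to 0.060 with a library left out. In OPC-like minus oligodendrocyte-like nuclei, Cntnap1 had -0.20 to 0.22 with a library left out. In astrocyte-like minus OPC-like nuclei, Cntn5 had -0.068 with the members clustered on and -0.022 with doublets kept. In cluster 7 minus D1 MSN-like nuclei, set B alone gave 0.31 for Cntn2, 0.074 for Cntn4 and 0.093 for Cntn6, and leaving out a library gave -0.22 to 0.15 for Cntn2 and -0.056 to 0.017 for Cntn4. The cause was not tested. The cholinergic contrast could not be fitted in set B alone, and contrasts of eccentric MSN and committed OPC were not fitted, for lack of a named class and of libraries.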

Other observations

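Relatives of the contactin-associated proteins had class orders of their own, given here as values with no test. Of 5 relatives searched, Cntnap5b and Cntnap5c were matched. Cntnap5c, of the neurexin-like family, was 2528 ± 513 CPM in Drd3-like nuclei (SD, n = 6), the class in which Cntn5 was also highest. It was 1701 ± 260.4 CPM in pallidal-like, 697 ± 76.4 in Chst9/Grm8-like and 258 ± 49.0 in D1 MSN-like nuclei (SD, n = 6). Cntnap5b was 1227 ± 188 CPM in pallidal-like, 1201 ± 285 in Sst/Npy-like and 144 ± 57.8 in Pvalb/Pthlh-like nuclei (SD, n = 6), and 2007 ± 99.2 in the glutamatergic-like nuclei of the 2 set A libraries. OPC-like nuclei held 117 ± 41.5 CPM of Cntnap5c and 85.7 ± 37.7 of Cntnap5b (SD, n = 6).

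Male pool 1 held 1740 of the 2293 nuclei of cluster 3, whose median depth was 1424 UMIs, and it was the one library of this cluster with more than 10 UMIs of Cntnap1. Cntn3 there was 245 CPM in male pool 1, against 168 to 504 CPM in the other 5 libraries.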
